A study of Mus musculus with 22 samples.

Results

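The genes described here are 9 components of epithelial sodium transport: Scnn1a, Scnn1b and Scnn1g (the alpha, beta and gamma subunits of the epithelial sodium channel, ENaC), Atp1b1 (the beta 1 subunit of the sodium pump), Slc9a3 (the apical sodium-hydrogen exchanger NHE3), Slc12a1 (the sodium-potassium-chloride cotransporter NKCC2), Slc12a3 (the thiazide-sensitive sodium-chloride cotransporter NCC), Nr3c2 (the mineralocorticoid receptor) and Hsd11b2 (the enzyme that inactivates glucocorticoids, so that aldosterone can reach this receptor). They were chosen as a list of genes, and all 9 of them were among the 31053 genes of the count tables. Their levels were followed across cell classes of pooled mouse organs, across genotype labels of the sodium leak channel gene Nalcn, and in circulating cells.

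In an absorptive epithelium sodium enters across the apical membrane through a channel, exchanger or cotransporter and leaves across the basolateral membrane through the sodium pump. The kidney tubule divides this work among segments. NHE3 acts in the proximal tubule and thick ascending limb, NKCC2 in the thick ascending limb, NCC in the distal convoluted tubule and ENaC in the connecting tubule and collecting duct, where aldosterone raises its activity. In the lung, ENaC takes part in the clearance of fluid from the airspaces.

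Droplet-based single-cell libraries were made from mice in which the Prom1 promoter drives a tamoxifen-inducible Cre recombinase and recombination turns on a ZsGreen tag, with a conditional Nalcn allele in the animals labelled het or null. The tissue groups held 5 wt libraries (3 male aged 571, 571 and 608 days, and 2 female aged 611 and 654 days), 2 het libraries (both male, 551 days) and 2 null libraries (a male of 552 days, and one labelled female of 611 days). Each was a pool of dissociated kidney, liver, lung and stomach with epididymis or uterus. Sorted ZsGreen-positive blood cells of mice without tumours (ntCZC) gave 2 wt libraries (both male, 571 and 608 days), 4 het libraries (3 male of 551, 551 and 610 days, and a female of 649 days) and 4 null libraries (a male of 552 days, and 3 female of 551, 612 and 613 days). Unsorted blood mononuclear cells (PBMC) of a male wt mouse of 120 days gave 1 library. Deletion is confined to cells in which Prom1 drove Cre, so a tissue library labelled null can hold cells with an intact allele. Another 2 tissue libraries carried conflicting genotype entries and stayed outside all comparisons. The labels name no animals. Therefore n counts libraries, p-values measure the spread between libraries, and libraries alike in genotype, age and sex may stem from 1 mouse. This holds for the 2 het tissue libraries, for wt tissue replicates 1 and 2, and for ntCZC libraries that match a tissue library.

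The 9 tissue libraries held 143502 barcodes with 8571019 to 139793927 unique molecular identifiers (UMIs, each a captured transcript) per library, and the ntCZC libraries 50 to 621 barcodes with 161541 to 2600526 UMIs. A barcode was kept when 200 or more genes were detected and no more than 50% of its UMIs were mitochondrial, which 114976 barcodes (80.1%) met. The median mitochondrial share before this step ran from 13.9% to 55.9% across tissue libraries. Each pair of tissue libraries shared 3 to 226 barcode sequences, at most 0.9001% of the smaller library. Barcodes were assigned to classes by lists of markers that held none of the 9 genes. A class was taken where at least 3 distinct markers of its list were detected above the level in lymphocytes, and 50656 barcodes fell into a single class, 12599 of them epithelial. Nalcn itself gave 39 UMIs in wt, 11 in het and 24 in null tissue libraries and 0 in the ntCZC libraries. At 0 to 0.204 counts per 1000000 UMIs of the library (CPM) in wt against 0.272 to 0.386 in null, the measured 3′ transcript was not lower in the libraries labelled null. These reads need not cover the deleted part, so they do not check the labels. Tissue null replicate 3, labelled female with uterus, held 758 barcodes of the epididymal class, and its label therefore does not match its content. Each null contrast it enters below takes it as female in the sex covariate, and without this covariate 0 members were called for null (edgeR).

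All values below are CPM, the UMIs of a gene per 1000000 UMIs of all barcodes of a class in a library, given as mean ± SD over the libraries with at least 20 such barcodes. A positive barcode has at least 1 UMI of the gene. Free RNA in the droplets gives a background, which was read from the B and T cell classes of the same libraries. There the mean positive share was 0.076% to 0.71% for the 3 channel subunits, 2.25% to 3.58% for Slc12a1 and Slc12a3, and 13.7% to 15.4% for Atp1b1. In its highest class, each of the 9 genes had a larger positive share than these lymphocytes in every library. That class was picked by its mean CPM in the same libraries, and depth differed between classes, so this is a description. In a pooled organ, fewer cells of a type and less RNA per cell cannot be told apart in whole-library values.

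Promoter sequences are shown for the pairs of genes whose patterns the results turn on, the beta and gamma channel subunits and the cotransporters Slc12a1 and Slc12a3. The sequences are those of RefSeq on GRCm38.p6, from 250 bases before to 50 bases after the annotated start, read 5′ to 3′ on the gene's strand, which is the plus strand for these 4 genes. They lie at chr7:121864788-121865087 (Scnn1b), chr7:121734229-121734528 (Scnn1g), chr2:125152350-125152649 (Slc12a1) and chr8:94328958-94329257 (Slc12a3). Capitals mark matches to the motifs searched.
Scnn1b: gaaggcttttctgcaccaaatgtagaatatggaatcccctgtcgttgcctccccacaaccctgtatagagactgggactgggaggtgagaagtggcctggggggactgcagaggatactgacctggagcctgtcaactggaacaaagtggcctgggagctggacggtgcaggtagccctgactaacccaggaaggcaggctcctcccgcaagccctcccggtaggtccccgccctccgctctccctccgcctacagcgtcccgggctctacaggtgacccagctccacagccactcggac
Scnn1g: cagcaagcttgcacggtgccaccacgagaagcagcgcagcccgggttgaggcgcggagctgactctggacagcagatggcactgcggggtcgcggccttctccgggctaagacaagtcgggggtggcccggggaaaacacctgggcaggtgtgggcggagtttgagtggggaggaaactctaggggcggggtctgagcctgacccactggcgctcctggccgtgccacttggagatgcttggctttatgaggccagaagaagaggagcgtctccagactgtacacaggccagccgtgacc
Slc12a1: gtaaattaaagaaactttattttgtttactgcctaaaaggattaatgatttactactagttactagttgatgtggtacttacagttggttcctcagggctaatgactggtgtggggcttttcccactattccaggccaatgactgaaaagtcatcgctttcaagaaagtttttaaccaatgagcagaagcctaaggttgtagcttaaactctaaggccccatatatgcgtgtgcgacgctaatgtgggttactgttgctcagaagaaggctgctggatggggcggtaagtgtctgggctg
Slc12a3: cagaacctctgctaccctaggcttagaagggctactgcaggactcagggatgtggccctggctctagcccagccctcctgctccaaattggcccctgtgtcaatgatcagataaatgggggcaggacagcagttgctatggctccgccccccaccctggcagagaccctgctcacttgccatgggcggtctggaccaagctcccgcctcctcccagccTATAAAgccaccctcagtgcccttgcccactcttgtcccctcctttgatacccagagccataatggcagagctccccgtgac
The following letter strings were searched on both strands in the 7 of the 9 genes with a promoter in this table. The string AGAACA is part of the motif of the mineralocorticoid and glucocorticoid receptors, GTTAAT part of the motif of HNF1, and TATAAA the TATA box. The TATAAA of Slc12a3, 32 bases before the start, was the single match in the 7 windows. Over all 32851 promoters of this length, AGAACA occurred in 19.0%, GTTAAT in 7.1% and TATAAA in 13.6%. Scnn1g and Scnn1b lie on the same strand of chromosome 7, at 121734479 to 121768475 and 121865038 to 121918514, with 96562 bases between them. Scnn1a lies on chromosome 6 (125320659 to 125344943).

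The 9 genes fell into distinct cellular patterns. ENaC transcripts of all 3 subunits were highest in alveolar type 1 cells of the lung, Slc12a1 and Slc9a3 in a kidney class led by Umod and Egf, and Slc12a3, Atp1b1 and Hsd11b2 in distal kidney tubule. Nr3c2 was highest in a class led by Atp6v1g3 and Foxi1. Apart from Sprr2f of squamous cells, the leading genes named here and below are markers of their class. Their lead therefore follows from the selection. Of 26 classes, 22 had at least 20 barcodes in 3 or more libraries and were ranked, and these orders hold among them. With at most 25% mitochondrial UMIs per barcode, the highest class differed for 4 members. Slc9a3 was then highest in proximal tubule (48.3 CPM), and the distal class, left with 2 libraries, was not ranked for Slc12a3, Atp1b1 and Hsd11b2. With 1 more marker per class, the Atp6v1g3 and Foxi1 class of Nr3c2 was left with 2 libraries and not ranked, and the highest ranked class of Nr3c2 was the distal class.

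**Figure D1:**
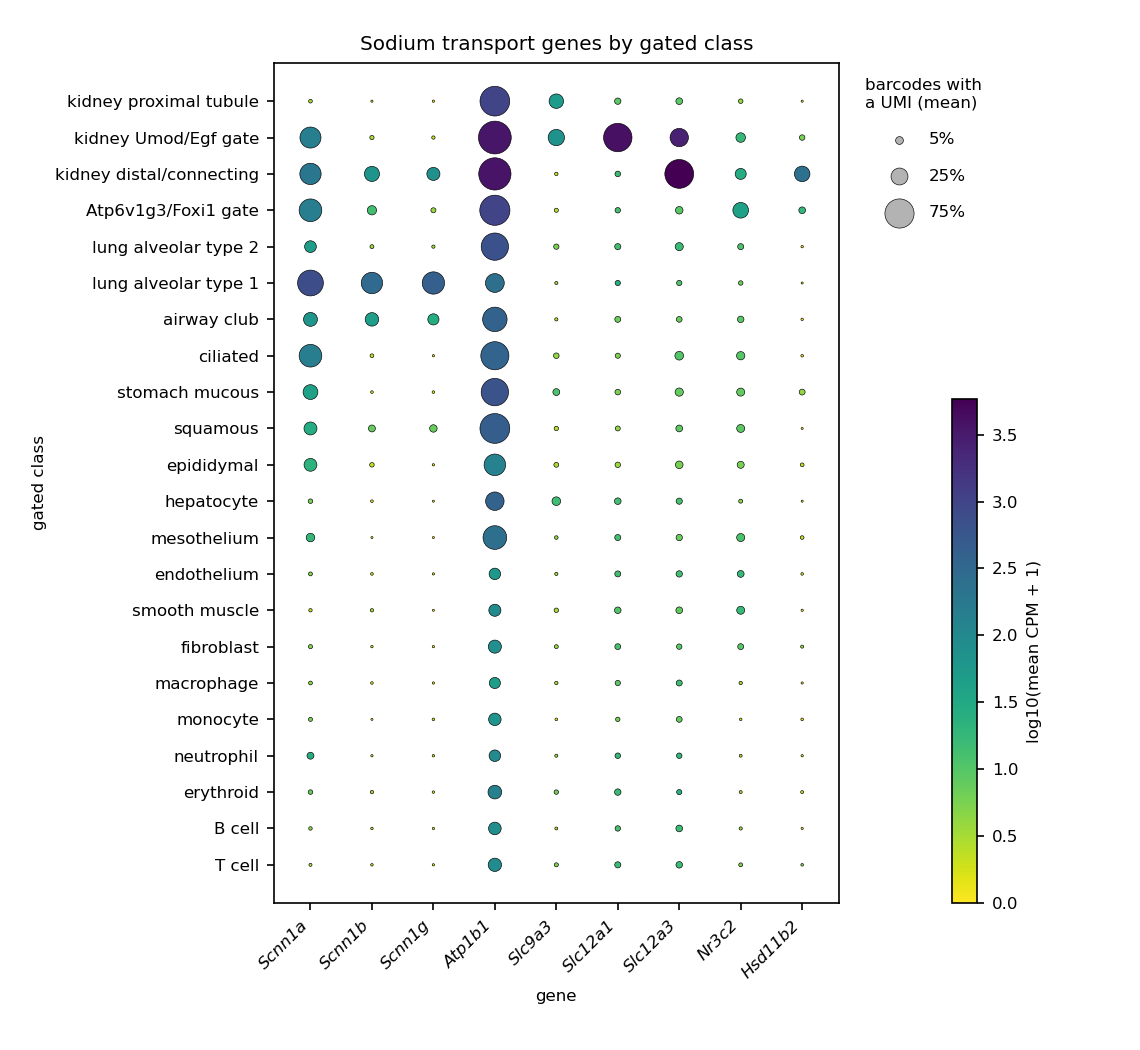
Mean level (colour, log10 of mean CPM + 1) and mean share of barcodes with a UMI (dot area) of the 9 genes (x axis) in the 22 ranked classes (y axis), over tissue libraries with at least 20 barcodes of the class. Scnn1b and Scnn1g are high in few classes, whereas Scnn1a is seen in many epithelial classes and Atp1b1 in all of them.

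Alveolar type 1 cells, the thin cells across which gas is exchanged, carried all 3 channel subunits. The class (294 barcodes) was led by Ager, Rtkn2 and Aqp5. Scnn1a stood at 473, 738, 1070, 862 and 681 CPM in wt replicates 2 and 4, het replicate 1 and null replicates 2 and 3, a mean of 765 ± 221 CPM (n = 5). Scnn1b stood at 168, 233, 509, 354 and 222 CPM in the same order (297 ± 136 CPM, n = 5). Scnn1g stood at 232, 233, 827, 420 and 445 CPM (431 ± 243 CPM, n = 5). Every library was above its lymphocytes for each subunit. Among these 5 libraries the het library was the highest, but wt replicate 1, with 10 barcodes, held 1506 CPM of Scnn1a and 1327 CPM of Scnn1g, above the het library. The mean positive shares were 58.5%, 39.97% and 43.7%, and after thinning each barcode to 1000 UMIs 50.5%, 25.8% and 30.8%. All 3 subunits were detected together in 69 of 294 barcodes (23.5%). The other members were low here, with Atp1b1 at 256 ± 42.4 CPM and Hsd11b2 at 0 UMIs, which allows up to 4.63 CPM.

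The distal kidney class came next for each subunit. It was selected with a joint marker list of distal convoluted and connecting tubule (319 barcodes), and S100g and Calb1, which led it, are on that list. Scnn1a reached 193 ± 52.9, Scnn1b 65.4 ± 33.2 and Scnn1g 77.5 ± 48.6 CPM (n = 6). In the 5 libraries with both classes, alveolar type 1 cells were higher in all 5 for each of the 3 subunits (exact sign-flip permutation test, two-sided, p = 0.0625 for each, the smallest p that 5 libraries allow; adjusted p = 0.695 over 189 pairs of neighbouring classes). Airway club cells, the secretory cells of the bronchioles, followed for Scnn1b with 46.2 ± 21.8 CPM and for Scnn1g with 26.7 ± 20.7 CPM (n = 6). The step down to club cells was seen in 3 of 5 libraries for Scnn1b and in 5 of 5 for Scnn1g (exact sign-flip permutation test, two-sided, p = 0.313 and 0.0625, adjusted p = 1 and 0.695 over 189 pairs).

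Collecting duct principal cells, the classical site of ENaC, were too few to rank. Their 52 barcodes were spread over 8 libraries, none with 20. Pooled over libraries, Scnn1a stood at 145 CPM (95% Poisson interval 105 to 195), Scnn1b at 175 CPM (131 to 230) and Scnn1g at 138 CPM (99.1 to 187). In the same barcodes Hsd11b2 reached 1462 CPM (1328 to 1607) and Atp1b1 2497 CPM (2320 to 2683). These intervals cover counting error only. The highest single library of the distal class had 122 CPM for Scnn1b and 159 CPM for Scnn1g.

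**Figure D2:**
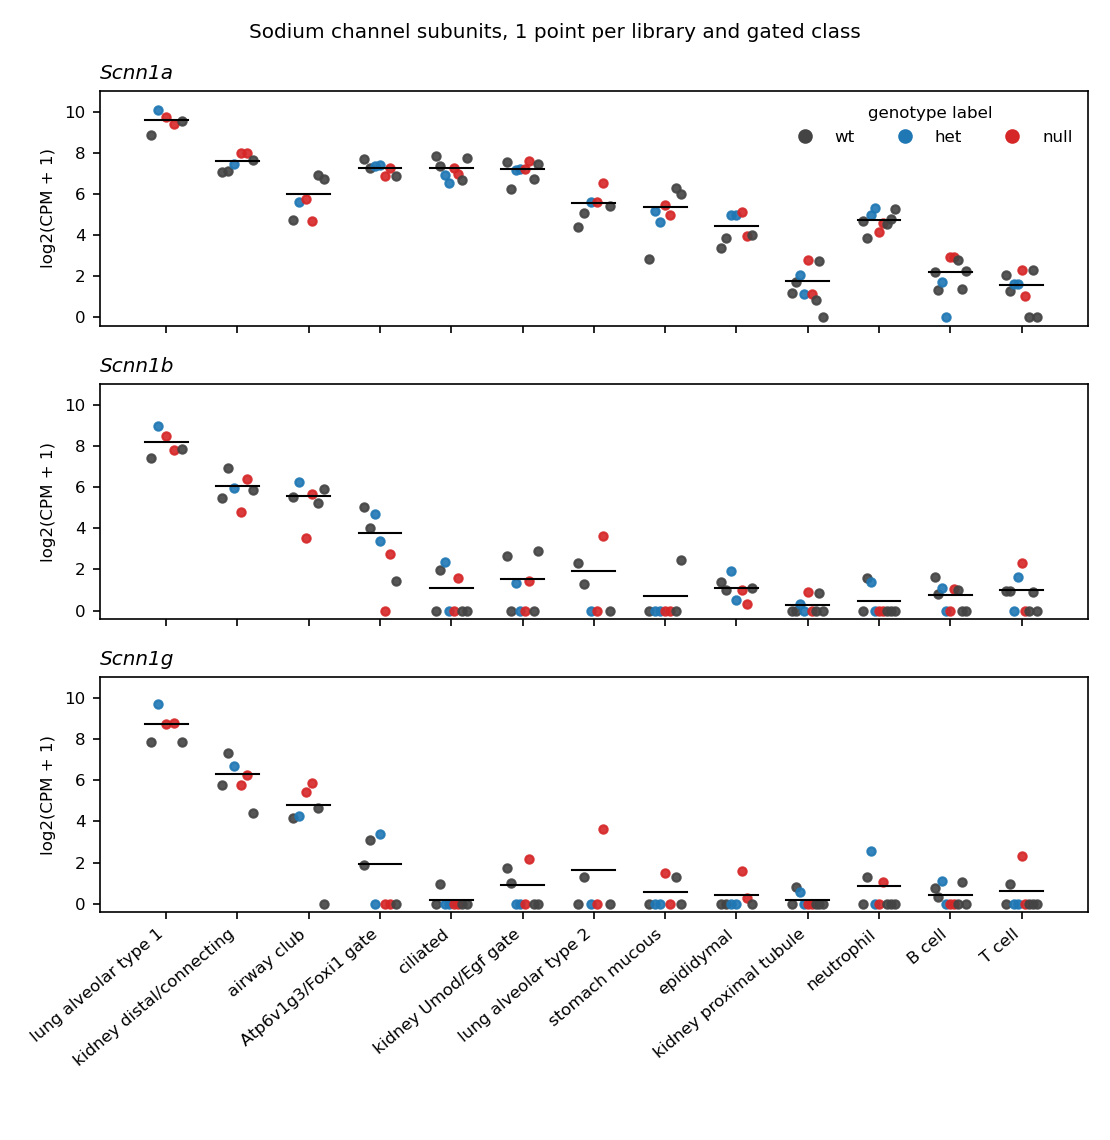
Levels of the 3 channel subunits, as log2(CPM + 1), in 13 gated classes (x axis), with 1 point per library with at least 20 barcodes of the class, coloured by genotype label, and a line at log2 of the mean CPM + 1. Scnn1a stays at intermediate levels in ciliated cells and the Umod and Egf class, where Scnn1b and Scnn1g lie near the lymphocytes.

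In several epithelia Scnn1a was well above its partner subunits, and most barcodes with it had no UMI of a partner. Ciliated cells, led by Tmem212 and Ccdc153, held Scnn1a at 93.3 to 234 CPM in 8 libraries (151 ± 51.6 CPM), against 1.13 ± 1.66 CPM for Scnn1b and 0.121 ± 0.343 CPM for Scnn1g. Of 385 ciliated barcodes with Scnn1a, 380 had neither Scnn1b nor Scnn1g. The class led by Umod and Egf gave 147 ± 41.3 CPM (n = 8) and 303 of 312 Scnn1a barcodes without a partner, with Scnn1b at 1.90 ± 2.62 CPM. The Atp6v1g3 and Foxi1 class gave 155 ± 32.7 CPM (n = 7), with 174 of 198 barcodes without a partner. Scnn1b was present there at a lower level, 0 to 31.7 CPM (12.7 ± 12.0 CPM), against 0.687 ± 0.750 CPM in B cells. Its positive share was uneven, from 0% in null replicate 2 and 0.787% in wt replicate 3 to 14.8% in het replicate 1 and 20.3% in wt replicate 1. Ciliated cells and the Umod and Egf class, neighbours in rank, differed by 3.11 CPM with an SD of 52.9 CPM (exact sign-flip permutation test, two-sided, n = 8, p = 0.883, adjusted p = 1 over 189 pairs). In alveolar type 1 cells, 42 of 179 Scnn1a barcodes (23.5%) lacked both partners. Detection depends on depth, so absence of a UMI does not show absence of the transcript.

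Lower levels of Scnn1a were seen in alveolar type 2 cells (46.8 ± 24.4 CPM, n = 6), stomach mucous cells (39.8 ± 23.6 CPM, n = 7), squamous cells (26.9 ± 6.73 CPM, n = 4) and epididymal epithelium (21.1 ± 10.0 CPM, n = 7). Mucous cells were above the lymphocytes of the same library in 7 of 7 libraries, and epididymal cells also in 7 of 7. Proximal tubule cells, at 2.40 ± 2.12 CPM (n = 9), lay at the lymphocyte level of 1.97 to 3.58 CPM. Neutrophils gave 26.0 ± 8.70 CPM for Scnn1a and were above the lymphocytes in 9 of 9 libraries, by 23.2 ± 8.93 CPM. In neutrophils Scnn1b and Scnn1g stayed at 0.400 and 0.825 CPM. Of 174 neutrophil barcodes with Scnn1a, 171 had neither partner subunit.

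The cotransporters divided the kidney barcodes. Slc12a1 was at 2957 to 5699 CPM in 8 libraries of the Umod and Egf class (4152 ± 1020 CPM) and was positive in 71.0% of barcodes. In every other ranked class it lay at or below 26.4 CPM, with the lymphocytes at 12.0 and 14.6 CPM, so values elsewhere cannot be told from free RNA. Slc12a3 was highest in the distal class, at 3469, 2966 and 6500 CPM in wt replicates 1, 2 and 4, 8431 CPM in het replicate 1, and 7830 and 5820 CPM in null replicates 2 and 3 (5836 ± 2236 CPM, n = 6). It was also high in the Umod and Egf class, at 861 to 4869 CPM (2606 ± 1397 CPM, n = 8), which was lower in 5 of 6 libraries (exact sign-flip permutation test, two-sided, p = 0.0625, adjusted p = 0.695 over 189 pairs). Kidney barcodes were rich in mitochondrial UMIs, and with at most 25% of them per barcode Slc12a1 in the Umod and Egf class stood at 2188 CPM. Slc12a3 then stood at 1067 CPM in 2 libraries of the distal class and at 1960 CPM in 4 libraries of the Umod and Egf class.

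That class was selected with markers of the thick ascending limb, and its Slc12a3 went against the name for part of its barcodes. Of 817 barcodes, 549 (67.2%) had Slc12a1 alone, 217 (26.6%) Slc12a3 alone, 25 (3.06%) both and 26 (3.18%) neither. Umod, the gene of the urinary protein uromodulin and a marker used to select the class, was detected in 99.5% of the former and 96.8% of the latter. Tight junction genes of the thick limb separated them. Cldn16 and Cldn19 were detected in 33.2% and 43.0% of barcodes with Slc12a1 alone, but in 0.461% and 2.76% of barcodes with Slc12a3 alone. Pvalb, Trpm6 and Calb1, genes of the distal convoluted and connecting tubule, were detected in 37.3%, 29.95% and 33.6% of the barcodes with Slc12a3 alone and in 0.546% to 0.729% of those with Slc12a1 alone. Median depths were alike, 3376 and 3757 UMIs. The class is therefore called by its leading genes here.

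**Figure D3:**
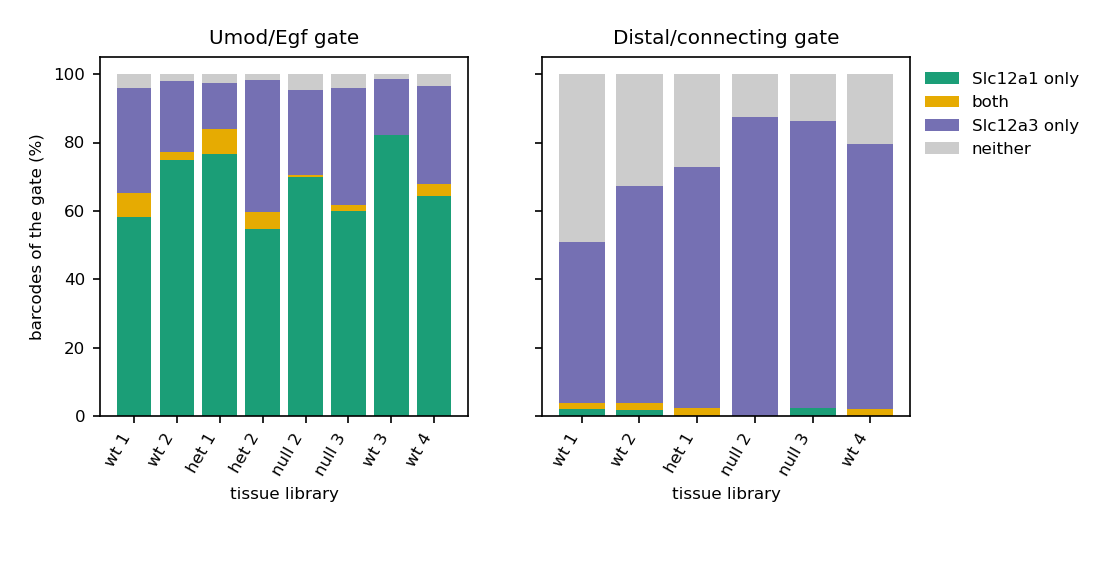
Share of barcodes (y axis, %) with Slc12a1 alone, both cotransporters, Slc12a3 alone or neither in each tissue library (x axis) with at least 20 barcodes, in the Umod and Egf class (left) and the distal class (right). Every library of the left panel holds both kinds of barcode, and few barcodes hold both transcripts.

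The class was then divided, after these values had been seen, into 377 barcodes with Cldn16, Cldn19 or Tmem207 and no distal marker and 124 barcodes with Pvalb, Trpm6 or Calb1 and no claudin marker. In the 5 libraries with 10 barcodes of each, Slc12a1 was at 5985 CPM in the claudin part against 36.6 CPM in the distal part, and Slc12a3 at 59.96 against 8111 CPM, in the same direction in all 5 libraries. Slc9a3 followed Slc12a1, at 122 against 0 CPM in 5 of 5 libraries. Scnn1a was lower in the claudin part (136 against 197 CPM) in 5 of 5 libraries. Atp1b1 stood at 3591 and 3908 CPM and was higher in the claudin part in 1 of 5 libraries. Because the parts were set with the data in view, these differences carry no test.

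Slc9a3 marked the proximal tubule and the Umod and Egf class. Proximal tubule cells gave 30.5 to 71.7 CPM in 9 libraries (50.2 ± 12.7 CPM) and the Umod and Egf class 39.1 to 106 CPM in 8 (71.3 ± 24.8 CPM), and the ranges overlapped (exact sign-flip permutation test, two-sided, n = 8, p = 0.0781, adjusted p = 0.8203 over 189 pairs). Both were above the lymphocytes in every library. Hepatocytes came next by mean with 13.4 ± 22.8 CPM (n = 7), but their median was 0 CPM and their highest library 62.3 CPM. They were below the proximal tubule in 6 of 7 libraries (exact sign-flip permutation test, two-sided, p = 0.0313, adjusted p = 0.695 over 189 pairs). The distal class was at 1.04 ± 1.62 CPM (n = 6), which is within the lymphocyte level. With at most 25% mitochondrial UMIs per barcode, Slc9a3 in the Umod and Egf class stood at 23.2 CPM.

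Atp1b1 was the most widely detected of the genes. The distal class (3703 ± 781 CPM, n = 6) and the Umod and Egf class (3547 ± 486 CPM, n = 8) overlapped and were followed by the Atp6v1g3 and Foxi1 class (1017 ± 306 CPM, n = 7) and the proximal tubule (1005 ± 206 CPM, n = 9). The Umod and Egf class exceeded the Atp6v1g3 and Foxi1 class in 7 of 7 libraries by 2639 ± 478 CPM (exact sign-flip permutation test, two-sided, p = 0.0156, the smallest p that 7 libraries allow; adjusted p = 0.695 over 189 pairs). Outside the kidney, alveolar type 2 cells gave 671 ± 134 CPM (n = 6), mucous cells 631 ± 152 CPM (n = 7), ciliated cells 367 ± 35.2 CPM (n = 8) and epididymal cells 123 ± 66.8 CPM (n = 7), with lymphocytes at 83.1 and 92.1 CPM. With at most 25% mitochondrial UMIs per barcode, 2 libraries of the distal class stood at 1420 CPM and 4 of the Umod and Egf class at 2455 CPM. Over the 9 genes and 189 pairs of neighbouring classes, 4 pairs had an unadjusted p below 0.05 and 0 an adjusted one (exact sign-flip permutation tests). The smallest p that 9 libraries allow is 0.00391. Over 189 pairs no pair could pass the adjusted threshold on its own, so the absence of calls does not show that neighbouring classes were alike.

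The aldosterone receptor and its guarding enzyme had different levels. Nr3c2 was low throughout, with its highest mean in the Atp6v1g3 and Foxi1 class, at 25.6 to 68.2 CPM in 7 libraries (40.8 ± 15.4 CPM). It was positive in 21.3% of these barcodes, and in 43.1% where the class needed 1 more marker (2 libraries at a mean of 44.6 CPM, against 30.2 CPM in 6 libraries of the distal class). It exceeded the distal class in 4 of 5 libraries, by 16.8 ± 18.2 CPM (exact sign-flip permutation test, two-sided, p = 0.125, where 5 libraries allow no p below 0.0625; adjusted p = 1 over 189 pairs). The distal class (27.2 ± 17.2 CPM, n = 6), endothelium (16.9 ± 3.53 CPM, n = 9) and the Umod and Egf class (16.4 ± 5.83 CPM, n = 8) followed, and endothelium was above lymphocytes in 9 of 9 libraries. Among the ranked classes Hsd11b2 was highest in distal kidney, while the pooled level of the unranked principal cells was 1462 CPM. It stood at 142, 459 and 108 CPM in wt replicates 1, 2 and 4, 151 CPM in het replicate 1, and 383 and 173 CPM in null replicates 2 and 3 of the distal class (236 ± 147 CPM, n = 6). The next class, Atp6v1g3 and Foxi1, had 17.2 ± 26.3 CPM, with 76.7 CPM in null replicate 2 and 5.28 to 9.35 CPM in the other libraries, and it was lower in 5 of 5 libraries (exact sign-flip permutation test, two-sided, p = 0.0625, adjusted p = 0.695 over 189 pairs).

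Within the distal class Hsd11b2 went with the channel. Of 67 barcodes with Hsd11b2, 42 (62.7%) also had Scnn1b or Scnn1g, against 15.1% of barcodes without Hsd11b2. In principal cells 26 of 36 (72.2%) did, and 12.5% of those without it. Barcodes with Slc12a3 alone had Hsd11b2 in 16.0% of 231 and barcodes with neither cotransporter in 34.6% of 81, at median depths of 3063 and 2219 UMIs. Barcodes of a library share their depth and free RNA, so these shares are descriptions.

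The Atp6v1g3 and Foxi1 class was selected with markers of intercalated cells, the acid-base transporting cells of the collecting duct. Its 441 barcodes were uneven between libraries, with 26 to 127 in the libraries labelled male, 50 in null replicate 3, 14 in wt replicate 4 and 0 in wt replicate 5. Clear cells of the epididymis are known to share proton pump genes with intercalated cells, and no marker here set them apart. When divided by Slc26a4, Slc4a1, Slc4a9, Aqp6 or Insrr, the 198 barcodes with one of these genes had Atp1b1 at 1609 CPM (1541 to 1679) against 528 CPM (491 to 568.1) in the 243 without. Scnn1a stood at 207 CPM (183 to 233) against 121 CPM (104 to 141), and Nr3c2 at 48.2 CPM (37.0 to 61.7) against 43.3 CPM (33.0 to 55.7), as pooled values with 95% Poisson intervals. These intervals cover counting error only, barcodes are not replicates, and the differences carry no test. Detection of the dividing genes depends on depth, and the median depth of this class ran from 1532 to 11854 UMIs between libraries.

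Other genes had a like distribution over the 22 classes. They were sought among 8033 genes that reached 50 CPM in a class, from which markers and members were then left out. By Pearson's r of log2(mean CPM + 1), the nearest to Scnn1a were Exph5 (0.89), Slc44a3 (0.87) and Cdh1 (0.85), the gene of E-cadherin. Slc12a3 was nearest to Abca13 (0.97) and Sall3 (0.97), Slc12a1 to Shd (0.89) and Eprn (0.89), Hsd11b2 to Klk1 (0.89), the kallikrein gene, and Slc9a3 to Nr1h4 (0.81), the bile acid receptor gene. Among the genes near Scnn1b was Plb1 (0.73) and among those near Scnn1g was Wnt7a (0.70). Scnn1b and Scnn1g had an r of 0.96 with each other, whereas Scnn1a had 0.72 and 0.70 with them. Nr3c2 was nearest to Tanc1 (0.89), and Atp1b1 to Uqcr10 (0.88). The classes of 1 library share its depth and free RNA, and these values are descriptions.

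A list of 32 further genes of sodium transport and its control had its highest mean in the distal class for 8 genes, in the Umod and Egf class for 4, in the Atp6v1g3 and Foxi1 class for 4, and in the proximal tubule, mesothelium, endothelium and stomach mucous cells for 2 each. For 8 genes the highest mean was in 8 other classes, none of them selected with kidney tubule markers. Among the highest ratios of top to median class were those of the potassium channel genes Kcnj1, which encodes ROMK (530 CPM in the distal class), and Kcnj10 (139 CPM in the distal class), and of Bsnd, the gene of barttin (63.3 CPM in the Atp6v1g3 and Foxi1 class).

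Genotype labels were compared within classes, since the study concerns loss of Nalcn. UMIs were summed per library and class and tested by the edgeR quasi-likelihood test with sex as covariate and Benjamini-Hochberg adjustment over all genes tested. The fit was made in the 14 classes with 2 or more libraries of each genotype, where 43 pairs of gene and class passed the filter on low counts in each contrast. For het against wt, 0 of 43 pairs were called, 12 had an unadjusted p below 0.05, and DESeq2 called 3, where it called 0.388% of all pairs of gene and class. For null against wt, 0 of 43 were called, 2 had an unadjusted p below 0.05, and DESeq2 called 0, with 0.115% of all pairs. Among all genes, the lowest and highest shares with an unadjusted p below 0.05 for het were 214 of 7182 in the Atp6v1g3 and Foxi1 class and 376 of 3067 in hepatocytes (edgeR). For null they were 69 of 6428 in mucous cells and 711 of 9027 in B cells (edgeR). In epididymal cells and the Atp6v1g3 and Foxi1 class, with 4 pairs each, and in hepatocytes, with 1, null replicate 3 was the only library labelled female. The sex term took it up there, and these null values rest on null replicate 2 alone. Over all genes, the share called for het and null was 0% and 0.0199% in proximal tubule, 0.509% and 0.0477% in the Umod and Egf class, 0.0863% and 0% in ciliated cells, 0% and 0.0962% in smooth muscle, and 0% and 0% in each of the Atp6v1g3 and Foxi1 class, mucous cells, epididymal cells, hepatocytes, endothelium, fibroblasts, macrophages, neutrophils, B cells and T cells. Few genes were thus called in any of these classes at this number of libraries. Classes with fewer than 2 het but 2 or more wt and null libraries were fitted on wt and null alone, an alternative chosen after the data had been seen. In alveolar type 1 cells (2 wt and 2 null libraries, 1 residual degree of freedom) 4 members were tested, and 0 were called or had an unadjusted p below 0.05, where 1.83% of all genes were called (edgeR). The log2 fold change for null was 0.37 (SE 0.58) for Scnn1a, 0.53 (SE 0.57) for Scnn1b and 0.89 (SE 0.56) for Scnn1g. In alveolar type 2, club, mesothelial and erythroid cells and monocytes Atp1b1 alone was tested and not called, with 0.0838% of all genes called in monocytes and 0% in each of the others.

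**Figure D4:**
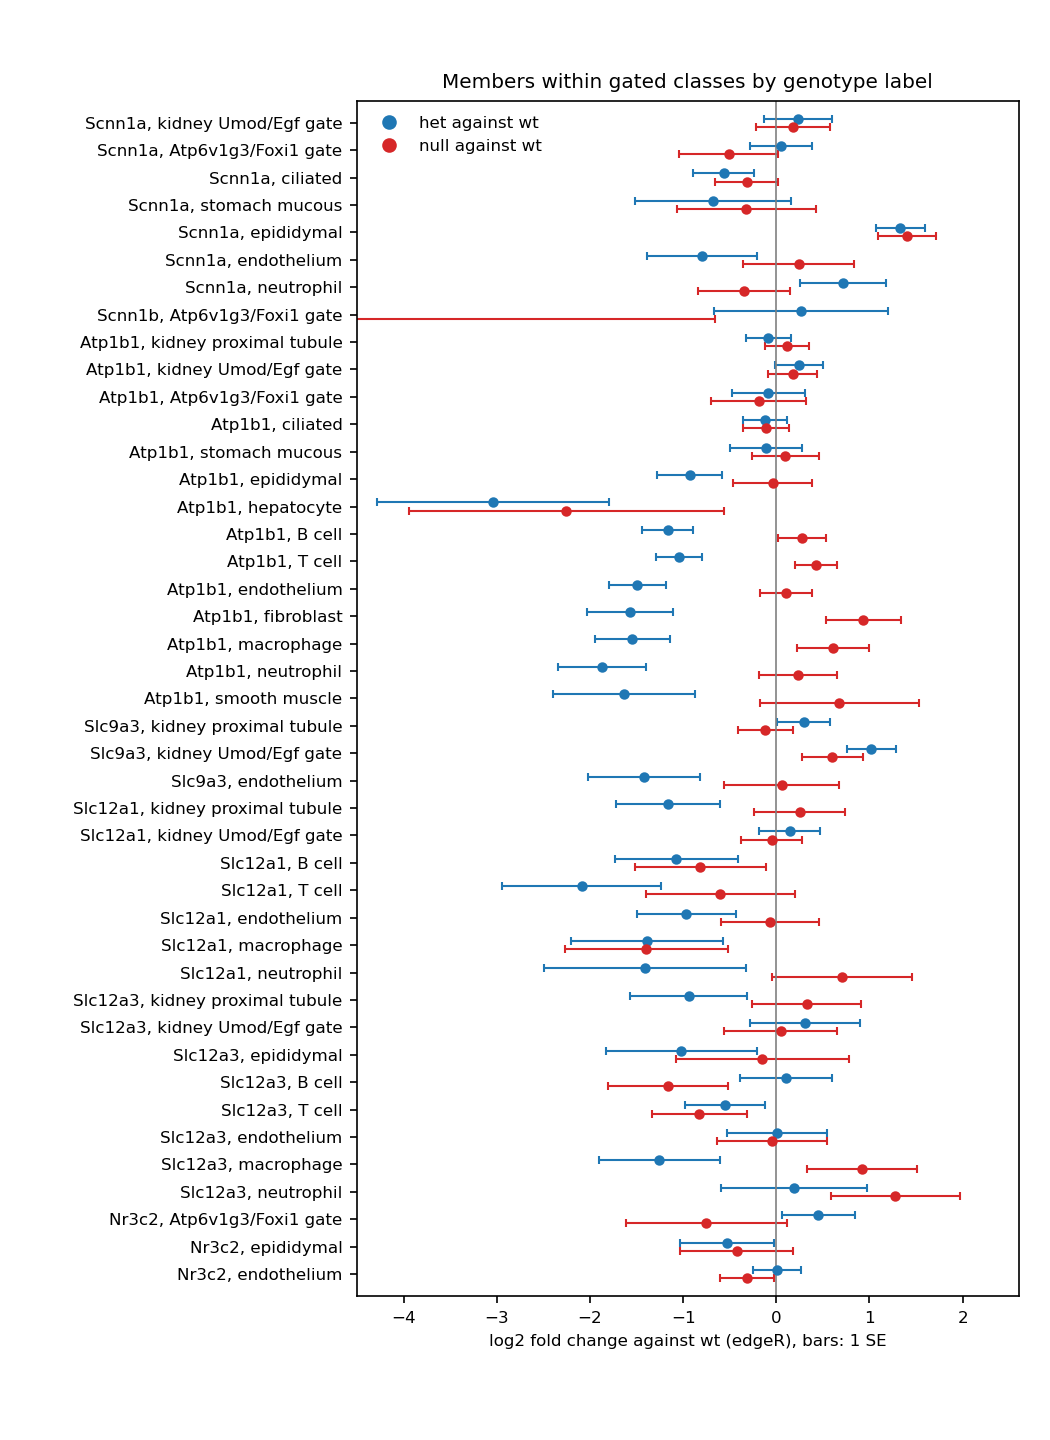
Log2 fold change against wt (x axis) with 1 SE in each direction, from edgeR, for the 43 pairs of gene and class that were tested (y axis), for het (blue) and null (red). Scnn1a in epididymal cells lies at 1.33 and 1.40, Scnn1b in the Atp6v1g3 and Foxi1 class for null, a value that rests on 0 UMIs in null replicate 2 and is no estimate of size, lies outside the axis, and none of the 43 pairs was called in either contrast by edgeR. Atp1b1 for het lies between -1.04 and -3.04 in hepatocytes and the 7 leukocyte and stromal classes.

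In leukocyte and stromal classes, where its level was low, Atp1b1 had lower values in the het libraries, without a call by edgeR. In B cells it was at 119, 110, 76.0, 57.5 and 96.7 CPM in wt, 43.6 and 40.1 CPM in het, and 107 and 98.9 CPM in null libraries. In endothelium it was at 56.3, 89.8, 55.3, 59.0 and 81.9 CPM in wt, 29.2 and 18.9 CPM in het, and 77.4 and 62.4 CPM in null libraries. The het libraries lay below all wt libraries in both classes, and null libraries lay within the wt range. How many of all genes had het and wt apart in this way was not counted. The log2 fold change for het was -1.16 (SE 0.28) in B cells and -1.49 (SE 0.31) in endothelium (edgeR, adjusted p = 0.418 and 0.565). DESeq2 called Atp1b1 lower in het in endothelium, neutrophils and T cells (adjusted p = 0.0129, 0.0339 and 0.0360). Without a filter on low counts, edgeR called 9 pairs lower in het, Atp1b1 in hepatocytes and the 7 leukocyte and stromal classes and Slc12a1 in T cells, where 1.5% of all pairs of gene and class were called. In the kidney classes, where Atp1b1 was highest, its log2 fold change for het was -0.09 (SE 0.24) in proximal tubule and 0.24 (SE 0.26) in the Umod and Egf class. The part of free kidney RNA in these values was not tested.

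Among the other pairs with small p-values were some in epididymal cells and the Umod and Egf class, and those in further classes are not detailed here. Scnn1a in epididymal cells was at 9.51, 13.8 and 15.1 CPM in wt, 30.5 and 30.5 CPM in het, and 33.8 and 14.6 CPM in null libraries. The het libraries lay above wt, and null replicate 3 lay within wt. The share of all genes with het and wt apart in this way was not counted. The log2 fold change was 1.33 (SE 0.26) for het (edgeR, unadjusted p = 0.00167, adjusted p = 0.533, and 0.0558 to 1 over 18 alternatives) and 1.40 for null (edgeR, adjusted p = 0.723). The null value, resting on null replicate 2, was 1.03 without sex as covariate, and 0.59 without null replicate 2, where the sex term could not be estimated and was dropped too.

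Slc9a3 in the Umod and Egf class was at 47.6, 58.1, 65.1 and 39.1 CPM in wt, 106 and 106 CPM in het, and 78.6 and 69.7 CPM in null libraries. Both het and null lay above wt, but the share of all genes separated in this way was not counted. The log2 fold change for het was 1.021 (SE 0.27; edgeR, unadjusted p = 0.00217, adjusted p = 0.118, and 0.0705 to 0.769 over 19 alternatives), and for null 0.60 (SE 0.33; edgeR, adjusted p = 1). In the part of the class with claudin markers alone it was 0.73 for het (edgeR, adjusted p = 0.532). Atp1b1 in epididymal cells was at 136, 101 and 253 CPM in wt, 71.5 and 88.9 CPM in het, and 157 and 57.4 CPM in null libraries. Its log2 fold change for het was -0.93 (SE 0.35; edgeR, adjusted p = 0.586).

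The distal class had 1 het library with 20 barcodes and was fitted with libraries of 10 or more barcodes, also chosen after the data had been seen. There 6 of the 9 genes were tested, and 0 were called or had an unadjusted p below 0.05 in either contrast (edgeR), where 0% of all genes were called for het and 0.0361% for null. Slc12a3 had a log2 fold change of 0.44 (SE 0.46) for het and 0.45 (SE 0.44) for null, Hsd11b2 of -0.78 (SE 0.57) and 0.68 (SE 0.57), and Scnn1a of 0.12 (SE 0.38) and 0.56 (SE 0.38). On wt and null libraries with 20 barcodes alone, 0 of the 6 were called for null and 0.0354% of all genes, and Slc12a3 had a log2 fold change of 0.75 (SE 0.37; edgeR, adjusted p = 0.981). With errors of this size, changes as large as these estimates were not called. Whether depth or the number of libraries set this limit was not tested. Of the 32 further genes, Sgk1, the hormone-induced kinase that raises channel activity, was the single edgeR call in 313 pairs of gene and class per contrast. DESeq2 called Sgk1, and also called Fxyd2, the gene of a sodium pump regulator, lower in het in epididymal cells (log2 fold change -2.40, DESeq2, adjusted p = 0.0460; edgeR, adjusted p = 0.533) and higher in null in endothelium, neutrophils and B cells. It called Slc4a4, the gene of a sodium-bicarbonate cotransporter, lower in het in hepatocytes, endothelium, B cells and T cells. Both genes had their highest mean in kidney classes, and the part of free kidney RNA was not tested. In the Umod and Egf class Sgk1 was at 46.8 to 205 CPM in 4 wt, 12.5 and 5.59 CPM in het, and 115 and 80.1 CPM in null libraries, a log2 fold change of -3.45 for het (SE 0.68; edgeR, adjusted p = 0.0483). Sgk1 was also lower in the het libraries of 3 other classes at an unadjusted p below 0.05 and without a call, with log2 fold changes of -1.05 in ciliated, -1.86 in mucous and -0.85 in epididymal cells (edgeR, adjusted p = 0.429, 0.857 and 0.553). The call was lost without any 1 of 7 of the 8 libraries of the fit, with adjusted p up to 0.560, and wt replicate 1 was the exception. The log2 fold change lay between -4.23 and -2.71 over 19 alternatives. In the part of the class with claudin markers it was -3.48 (edgeR, adjusted p = 0.129), and 0 of 22 genes of the list were called in either contrast, where 0.775% of all genes were called for het and 0% for null (edgeR).

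The study follows tagged cells of tumour-free mice into the blood, and these ntCZC libraries were compared with the tissue libraries. Of the 9 genes, 6 passed the filter and 5 of them were lower in ntCZC (edgeR, adjusted p below 0.05), in a comparison where 64.5% of all genes tested were called and 36% were called lower in ntCZC. Slc12a1 and Slc9a3, with 0 UMIs in ntCZC, and Slc12a3, with 12, passed the filter through tissue alone. For these genes lower was the only call possible, so their calls add nothing to their levels. Atp1b1 and Nr3c2 were low in ntCZC as well, at medians of 2.50 and 1.57 CPM. Whether these 2 genes also passed the filter through tissue alone was not tested, so their calls are read with their levels. Atp1b1 was at 0 to 9.03 CPM in 10 ntCZC libraries (median 2.50) and 179 to 648 CPM in 9 tissue libraries (median 339), with no overlap. Its log2 fold change was -6.71 (SE 0.41; edgeR, adjusted p = 3.1e-11). The share of all genes without overlap between these groups was not counted. Slc12a3 was at 0 to 2.14 CPM against 59.3 to 245 CPM, a log2 fold change of -7.51. Slc12a1 and Slc9a3 had 0 UMIs among 13389093 UMIs of all ntCZC libraries, which allows up to 0.224 CPM, against 45.9 to 106.6 CPM and 4.40 to 21.4 CPM in tissue (limit from 3 counts over the group). Nr3c2 was at 2.28 ± 3.38 CPM against 5.58 ± 1.10 CPM, and ntCZC het replicate 3, at 11.4 CPM, lay above the tissue range (log2 fold change -1.34; edgeR, adjusted p = 0.0111). The log2 fold change of Nr3c2 ran from -2.33 to -1.14 when 1 library was left out.

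Scnn1a was the tested member not called in this comparison. It was at 0 to 25.1 CPM in ntCZC (14.2 ± 9.58 CPM, n = 10) and 9.37 to 25.8 CPM in tissue (16.3 ± 4.91 CPM, n = 9), and the ranges overlapped (log2 fold change -0.17, SE 0.33; edgeR, adjusted p = 0.666). A total of 225 UMIs of Scnn1a came with 0 UMIs of Scnn1b and 4 of Scnn1g. For Scnn1b this allows up to 0.224 CPM, against 1.18 to 5.89 CPM in tissue, and Scnn1g had a pooled level of 0.299 CPM (95% Poisson interval 0.0814 to 0.765). By class, ntCZC barcodes of the neutrophil class held Scnn1a at 76.6 CPM (45.4 to 121; 16 of 116 barcodes), those of the macrophage class at 11.8 CPM (8.83 to 15.3; 43 of 584) and those in no class at 35.1 CPM (29.7 to 41.2; 112 of 1052). The B and T cell classes held 0 UMIs, with upper bounds of 1.963 and 5.39 CPM. Most of the Scnn1a UMIs, 151 of 225, were thus in barcodes without a class, and 0 ntCZC barcodes fell into an epithelial class. Without ntCZC het replicate 3, at 0.570 CPM, the log2 fold change of Scnn1a was 0.038 (edgeR, adjusted p = 0.901). Without a filter on low counts, 8 members were called, where 41.5% of all genes were called (edgeR).

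**Figure D5:**
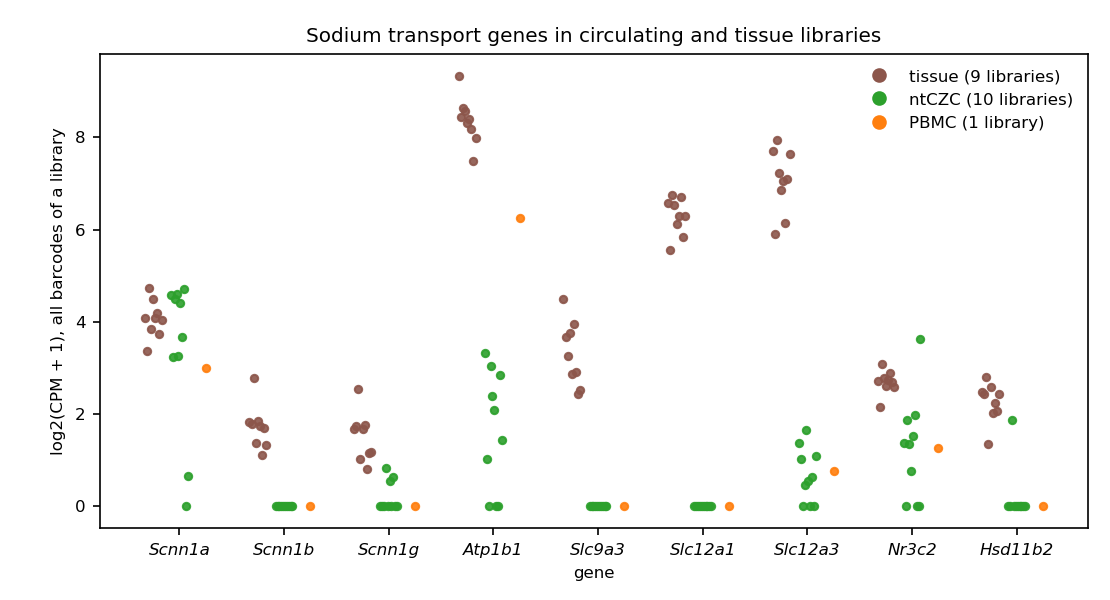
Levels of the 9 genes (x axis) as log2(CPM + 1) over all barcodes of a library (y axis), with 1 point per library for 9 tissue, 10 ntCZC and 1 PBMC libraries. Scnn1a of ntCZC overlaps with tissue, while those of Scnn1b, Atp1b1, Slc9a3, Slc12a1 and Slc12a3 do not. The share of all genes without overlap was not counted.

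Of the 32 further genes, 27 were tested in this comparison, and 3 were higher and 17 lower in ntCZC (edgeR), where 28.5% of all genes tested were called higher and 36% lower. Here too, a gene that passed the filter through tissue alone could only be called lower. DESeq2 called 2 higher and 21 lower, where it called 22% of all genes higher and 45.4% lower. The higher ones were Tsc22d3 (log2 fold change 1.64), the glucocorticoid-induced leucine zipper gene, the clock gene Per1 (1.00) and Slc12a2 (0.84), the gene of the widely expressed cotransporter NKCC1. DESeq2 did not call Slc12a2 (log2 fold change 0.56, DESeq2, adjusted p = 0.111). Per1 was not called by edgeR with the replicate number as a block, as given below. Among the lower ones were the kinase gene Wnk4, at a log2 fold change of -7.71, and Klhl3, the gene of a ubiquitin ligase adaptor, at -6.69 (edgeR, adjusted p = 9.7e-10 and 3.9e-10). Prss8, the gene of a channel-activating protease, and the potassium channel gene Kcnj1 were also called lower. Tissue libraries hold mostly other cell types than blood, and this difference in makeup cannot be told apart from a difference within a cell type.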

How the data were processed

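Droplet-based 3′ single-cell libraries of pooled mouse organs, sorted circulating cells and blood were analysed from the filtered gene by barcode matrices. The deposited counts are whole numbers of UMIs per gene and barcode, made by the authors with Cell Ranger on the mm10 build (version 2.1.1 in the submitters' processing notes, 3.0.2 in the matrix header). Organ hashtags were not used here, so a barcode has no organ label.

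Barcodes in which 200 or more genes were detected and no more than 50% of UMIs were mitochondrial were assigned to a class by marker lists without members. A class needed at least 3 distinct markers, each list at 10 times its B and T cell level, and ties within 3-fold were left out. Principal cells needed 2 markers including Aqp2. These scoring rules were set after class sizes and leading genes had been seen. The 9 genes, the marker lists and the list of 32 further genes were chosen with earlier results of these data known. Barcodes that met several classes were left out, and Scrublet (scanpy 1.11.5) was an alternative.

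UMIs were summed per library and class. Neighbouring classes were compared by exact sign-flip permutation tests over libraries. Genotypes (in each class with 2 libraries of every genotype), and ntCZC against tissue, were tested with edgeR 4.0.16 (R 4.3.3; quasi-likelihood test, TMM scaling, filterByExpr, sex as covariate, Benjamini-Hochberg adjustment, threshold 0.05), and the code was tested on simulated data. DESeq2 1.42.0, other scaling, filters, barcode limits and each library left out were alternatives. Total UMIs ran from 161541 to 139793927 per library. Shares were also computed with barcodes thinned to 1000 UMIs. Intervals (95%, exact Poisson) and floors (3 counts) cover counting error only. All 9 genes are named throughout. Of the further list, the rule names called genes and the 5 with the highest ratio of top to median class, and some called genes stand as examples. For likeness, the 3 nearest genes per member were ranked and some are named. Some genes that these rules select are not reported here. Gene positions are those of GENCODE vM21, and promoters those of RefSeq.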

Additional observations from a re-analysis of the deposited data

Results flagged for a closer look

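In the het libraries Atp1b1 lay above wt in the Umod and Egf kidney class and below it in 6 other classes, and none of these differences was called in the main fit (edgeR). As given above, DESeq2 called Atp1b1 lower in het in endothelium and neutrophils. Without a filter on low counts, edgeR called it lower in these 6 classes except epididymal cells. The ratio of mean CPM, het over wt, was 1.2 in the Umod and Egf class, 0.492 in epididymal cells, 0.456 in B cells, 0.352 in endothelium, 0.311 in fibroblasts, 0.337 in macrophages and 0.276 in neutrophils, with no overlap between het and wt libraries in each. For null over wt, Atp1b1 had a ratio of 1.85 in fibroblasts and 0.888 in ciliated cells, also without overlap and without a call. The differences between classes were not tested, and 86 contrasts were compared. The share of all genes without overlap between groups was not counted, so the lack of overlap is a description.

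Signals also appeared in libraries outside the comparisons. The PBMC library held 10 UMIs of Scnn1a and 107 UMIs of Atp1b1. Of these, 7 UMIs of Scnn1a were in 37 barcodes of the neutrophil class, at 213 CPM (95% Poisson interval 85.7 to 439), and 0 in its B and T cell classes. In the 2 tissue libraries with conflicting genotype entries, 9 members in one and 8 in the other had a larger positive share in their highest class than in lymphocytes, some of these classes holding under 20 barcodes. No library stood apart in 45 groups of 4 to 10 libraries tested for an outlying value. Within classes only wt libraries were tested, for pairs of gene and class in the genotype fit. Null replicate 2, with Hsd11b2 at 76.7 CPM in the Atp6v1g3 and Foxi1 class, was outside these groups.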

How the results depend on the processing

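Of the recomputed values, 521 kept their direction and their side of the threshold or stayed within the spread between libraries, 10 moved by more than this spread, 12 fell short of the threshold, 4 counts of calls were larger and 1 value reversed. Leaving out 1 library cannot move a mean by more than the SD over libraries. Those level values therefore had to stay within the spread and do not show stability. Leaving out 1 library kept the highest class of all 9 members. With at most 25% mitochondrial UMIs per barcode, 5 of 9 members kept their highest class, as the distal class of Slc12a3, Atp1b1 and Hsd11b2 was not ranked with 2 libraries and Slc9a3 was highest in proximal tubule. Atp1b1 in the distal class was then at 1420 CPM and 81.7% positive barcodes, Slc12a3 at 1067 CPM and 41.4%, Slc9a3 in the Umod and Egf class at 23.2 CPM and 9.52%, and Slc12a1 there at 2188 CPM. The cause was not tested. With 1 more marker per class, 8 of 9 kept their highest class (the class of Nr3c2 was left with 2 libraries), and the positive shares were 70.1% for Scnn1a in alveolar type 1 cells, 96.4% for Atp1b1 in the distal class and 43.1% for Nr3c2 in the Atp6v1g3 and Foxi1 class. Without a filter on low counts, 8 members were called in ntCZC against tissue, where more genes were tested. The log2 fold change of Scnn1a ran from -0.38 to 0.038 when 1 library was left out, and was 0.038 (edgeR, adjusted p = 0.901) without ntCZC het replicate 3. Leaving out 1 library gave 5 to 6 members called in ntCZC against tissue, 0 for null and 0 to 1 for het. The call for het was Atp1b1 in hepatocytes without wt replicate 3. The shares of all genes called in these fits are not given here, so the counts cannot be set against them. For het, DESeq2 called 3 pairs of gene and class, all of Atp1b1. Without a filter on low counts, edgeR called 9 such pairs, of Atp1b1 and Slc12a1. The Sgk1 call was lost in 12 of 19 alternatives, among them RLE scaling (edgeR, adjusted p = 0.0544), and DESeq2 kept it.

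With the replicate number as a block, 0 members were called for null, 0 for het (with Sgk1 and, in smooth muscle, Fxyd2 called of the further genes) and 5 for ntCZC against tissue. Of the 32 further genes, 2 were then higher and 17 lower in ntCZC, and Per1 was not called (log2 fold change 0.14; edgeR, adjusted p = 0.760). The share of all genes called with this block is not given here, so these counts cannot be set against it. The correlation of deviations between same-numbered libraries ran from -0.0856 to 0.0983 for ntCZC and tissue and from -0.313 to 0.442 for proximal tubule. Tissue libraries hold mostly other cell types than blood, so a low correlation does not show that such libraries stem from different mice. Whether the numbers pair libraries of the same mouse was not tested. Small classes and few het and null libraries limit the precision.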

Other observations

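The libraries with conflicting genotype entries, which entered no comparison, showed these levels. Slc12a1 was at 5679 CPM (42 barcodes) and 4762 CPM (152 barcodes) in the Umod and Egf class, and Atp1b1 there at 3503 and 3701 CPM. Scnn1a was at 856 CPM in alveolar type 1 cells of the second library (46 barcodes).

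Squamous cells, led by Krt15 and Sprr2f, held Scnn1b or Scnn1g in 47 of 400 barcodes (11.8%), and 32 of these 47 had no UMI of Scnn1a. Stomach mucous cells held Slc9a3 at 10.8 ± 9.08 CPM (n = 7), with T cells at 4.49 CPM.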
